A study of Triticum aestivum with 4 samples.

Results

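The miRNAs described here were 117 of the 282 known miRNAs listed for wheat crowns, and of 348 miRNAs listed in all. They were chosen by their names. The number after miR was above 400 and lay outside a fixed list of families, which covers conserved families such as miR408, miR444, miR528, miR827 and miR2118, and blocks of numbers given mostly to wheat, barley and Brachypodium, such as miR1117 to miR1139, miR5048 to miR5071, miR9652 to miR9679 and miR9772 to miR9783. The rule itself used no measured value, but it was set with earlier results of these data known. What remained is a mixed set of names first given in moss, Medicago, rice, Arabidopsis, citrus and other plants. A name tells which plant entry of miRBase the reads matched with fewer than 2 mismatches, and not that wheat carries the same gene.

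Crown tissue, the base of the shoot with its growing point, was taken from field-grown Shimai 22, a semi-winter wheat cultivar, at the three-leaf, winter dormancy, spring green-up and jointing stages. Each stage had 1 small RNA library, for which RNA of 3 biological replicates had been mixed equally. The replicates cannot be separated, so no difference between stages has a replicate check and no p-value is given. The libraries held 20.5 to 21.9 M mapped reads (M is 1000000 reads), and levels are in reads per 1000000 mapped reads (RPM), which are not divided by miRNA length.

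In plants, most miRNAs of 20 to 22 nt are cut from hairpin precursors by DCL1 and guide AGO1 to messenger RNAs, which are then sliced or less translated. Small RNAs of 24 nt are made mainly by DCL3 and enter AGO4 and its relatives, which direct DNA methylation at transposons and repeats. The first base steers the choice of protein, with U favoured by AGO1 and A by AGO4. An entry of 24 nt in a miRNA list may therefore be a long miRNA or a small RNA of the other kind, and its length alone does not say which.

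The 10 miRNAs with the highest summed RPM carry the largest part of the results, and their sequences are given first, as deposited, with the seed (bases 2 to 8) in capitals.
miR5240: uGUUAAAAauugcggauuuuu
miR6249a: cCUCCGGUggagaguagccgg
miR5638a: aAUAUACCaaagacugcucug
miR1023a-3p: gGAUAUGAauggagagagcgcu
miR6478: cCGACCUUagcucaguuggu
miR8135: aAUAUAUUugcagguuugagg
miR9493: aGUAAUUUggaacggagggag
miR5139: cGAAACCUggcucugauacca
miR5387b: gUGGCACGaaccgguacuaaaggu
miR8175: uCGUUCCCcggcaacggcgcca
None of these 10 seeds was shared among them. Over all 117 miRNAs there were 113 distinct seeds, and 8 miRNAs shared one with another of the set: miR5387a with miR5387b, miR7484m with miR9767, miR845c with miR1871, and miR858b with miR6300. The set is thus not made of a few large families.

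The set was split evenly by length. Of the 117 miRNAs, 59 (50.4%) were of 20 to 22 nt and 58 (49.6%) of 23 to 24 nt, whereas of the other 165 known miRNAs 135 (81.8%) were of 20 to 22 nt and 30 (18.2%) of 23 to 24 nt. The class of 24 nt alone held 54 miRNAs (46.2%) of the set, against 23 (13.9%) of the other known miRNAs. Within the set, 40 miRNAs had 21 nt, 14 had 22 nt, 5 had 20 nt and 4 had 23 nt.

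The first base differed between the length classes. Of the 59 shorter miRNAs, 31 (52.5%) began with U, 12 with A, 10 with C and 6 with G. Of the 58 longer ones, 21 (36.2%) began with G, 18 (31%) with A, 11 (19%) with U and 8 with C. The other known miRNAs showed the same drop in U, with 54.8% U in 20 to 22 nt and 20% in 23 to 24 nt. G stood first in 20% of their longer class, which holds only 30 miRNAs. The motifs CUCCGU or ACGGAG, read on the listed strand and found at the ends of Stowaway transposons, were present in 2 of the 117 miRNAs (1.71%), miR5281b and miR9493, and in 16 (9.7%) of the other known miRNAs. The choice by name had placed miR1135 and miR1436, whose sequences hold ACGGAG, among the other known miRNAs. These shares therefore depend on how the set was chosen.

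The 117 miRNAs were expressed at a low level beside the other known miRNAs. Their summed level was 5354.5 RPM at three-leaf (95% Wilson interval 5324 to 5385), 4838.2 RPM at dormancy (4808 to 4868), 5053.9 RPM at green-up (5024 to 5084) and 3190.7 RPM at jointing (3167 to 3215). These intervals cover counting error only, since PCR copies of 1 molecule cannot be told from separate molecules without identifiers. The sums made up 3.83, 3.70, 4.82 and 4.76% of the RPM of all known miRNAs in the same order of stages. The set therefore held 41.5% of the known names and under 5% of their reads. Its sum was lowest at jointing, as was that of all known miRNAs, so that its share there did not fall below that at three-leaf.

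The median miRNA of the set stood at 8.7 RPM at three-leaf, 7.2 at dormancy and 7.4 at green-up, with 1.5 at jointing. The medians of the other known miRNAs were 41.2, 36.5, 30.3 and 27.1 RPM. Those of the 66 wheat_miRNAs, the listed miRNAs that are not among the known ones, were 7.82, 9.42, 4.845 and 2.62 RPM. A low median was thus not particular to the set. By their highest value in any library, 23 miRNAs of the set reached 100 RPM, 14 lay between 40 and 100, 53 between 5 and 40, 19 between 1 and 5, and 8 stayed under 1 RPM. Of the 23 that reached 100 RPM, 16 were of 20 to 22 nt and 7 of 23 to 24 nt.

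The shorter class held most of the reads. Its sums were 4020.3, 3729.2, 3661.1 and 2464.6 RPM from the three-leaf stage to jointing, against 1334.2, 1109, 1392.8 and 726.1 RPM for 23 to 24 nt. This was 72.4 to 77.2% of the reads of the set. The medians gave another order, since the 5 highest miRNAs held 50.8 to 76.7% of the reads of the shorter class. The median of 20 to 22 nt was 12.9, 9.3, 5.2 and 1.4 RPM, lower at each later stage, while that of 23 to 24 nt was 4.85, 4.75, 9.15 and 1.5 RPM and was highest at green-up. The decline of the shorter class was not found with zeros left out. Its medians then were 24.8, 18.5, 28.55 and 18.65 RPM, highest at green-up and without a stepwise decline, and those of the longer class were 11.95, 14.4, 16.6 and 10.65 RPM. The median of the shorter class was below that of the longer class at green-up and jointing only with the zeros counted and the classes divided after 22 nt. Without zeros it was above, and with classes of 20 to 21 and 22 to 24 nt it was above as well, at 9.1 against 6.85 RPM and 4.6 against 0.7 RPM.

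The order of the sums over the stages rested on single miRNAs. Without miR5240 the set summed to 4489.2 RPM at three-leaf, 4838.2 at dormancy and 3804.9 at green-up, with 3190.7 at jointing, so that dormancy was the highest stage and the value of green-up lay below it. The sum at dormancy in turn held 760.8 RPM of miR8135, which was at 0 in the other libraries. The 10 miRNAs with the highest summed RPM held 42.6% of the reads of the set at three-leaf, 53.4% at dormancy and 63.6% at green-up, with 63.4% at jointing.

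**Figure D1:**
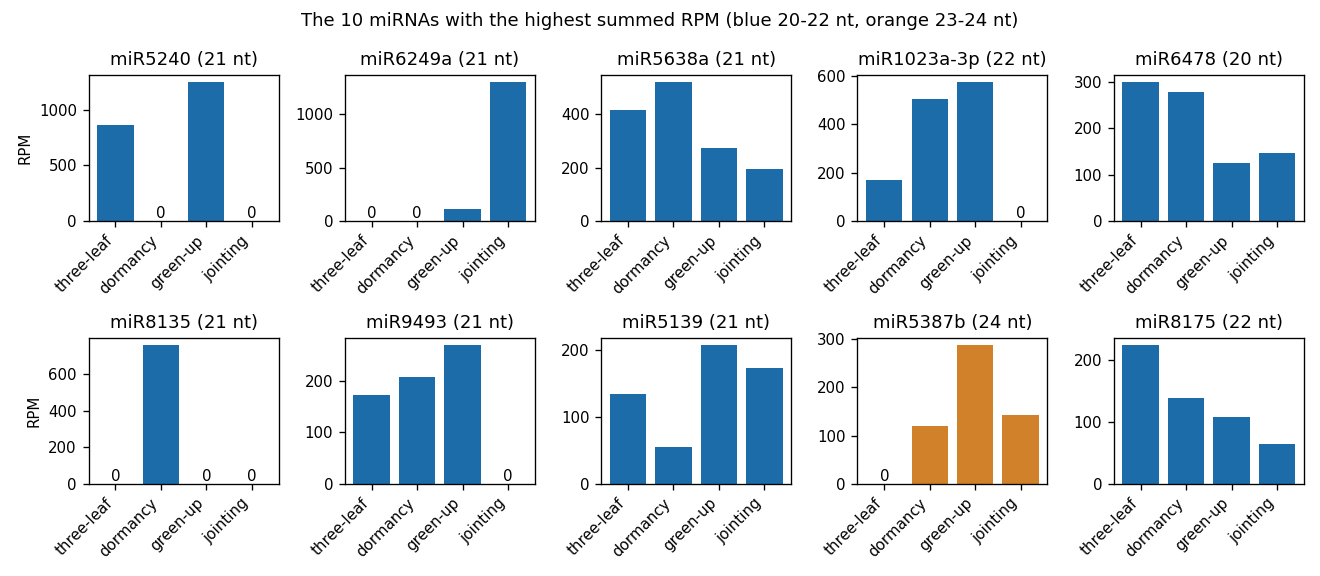
RPM (vertical axes from 0, scaled for each panel) at the 4 stages, 1 library each, for the 10 miRNAs with the highest summed RPM; blue bars are 20-22 nt and the orange bars 24 nt, and a 0 marks a miRNA listed at 0. Of the 10 miRNAs, 6 are listed at 0 in at least 1 library, among them miR5240 with 1249 RPM at green-up and miR8135 with 760.8 RPM at dormancy.

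miR5240, a name first given in the legume Medicago, had 865.3 RPM at three-leaf and 1249 RPM at green-up, and was listed at 0 at dormancy and jointing. These values are about 18755 and 27339 reads. miR6249a was listed at 0 at three-leaf and dormancy, and had 111.8 RPM at green-up, then 1303 RPM at jointing, the highest single value of the set. miR8135 had 760.8 RPM at dormancy, about 15622 reads, and was listed at 0 at the 3 other stages. The 3 miRNAs with the highest single values were thus each listed at 0 in at least 2 of the 4 libraries, beside levels far above the smallest ones listed.

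miR5638a, a name from Arabidopsis, had the highest sum among the miRNAs above 0 in all libraries, with 417, 520.6, 275 and 193.9 RPM from the three-leaf stage to jointing. Its level at jointing was 0.465-fold that at three-leaf (log2 change -1.10, 95% exact interval -1.16 to -1.05). miR6478 had 300, 277.4, 126.1 and 147.3 RPM, with the step between dormancy and green-up the largest (log2 change -1.14, interval -1.20 to -1.07, for green-up against dormancy). As deposited, both were higher at the 2 earlier stages than at the 2 later ones. Scaled to the summed RPM of all listed miRNAs, jointing lay close to three-leaf, with log2 changes of -0.054 for miR5638a and 0.024 for miR6478.

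miR1023a-3p, first named in the moss Physcomitrella, had 169.4, 506.2 and 576.7 RPM at the three-leaf, dormancy and green-up stages and was listed at 0 at jointing. miR9493 followed the same outline, with 172.7, 206.6 and 269.7 RPM and a 0 at jointing. miR8175 had 224.5, 139, 108.4 and 64.3 RPM and was lower at each later stage. miR5139 was lowest at dormancy, with 134.4, 54.5, 207.4 and 171.8 RPM.

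Listing at some stages only was the rule in this set. A value above 0 in all 4 libraries was found for 45 of the 117 miRNAs (38.5%), in 3 libraries for 21, in 2 for 20 and in a single library for 31. Of the other known miRNAs, 120 of 165 (72.7%) had no 0, while 13 had a value in 3 libraries, 18 in 2 and 14 in 1. Put the other way, 72 miRNAs of the set (61.5%) were listed at 0 somewhere, against 45 (27.3%) of the other known ones. The wheat_miRNAs lay between, with 31 of 66 (47%) at 0 somewhere. Counted over the 3 libraries before jointing, 56 of 117 (47.9%) and 126 of 165 (76.4%) were above 0 throughout.

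A 0 in the table does not show absence. The smallest values above 0 among known miRNAs were 0.6, 0.3, 0.3 and 0.2 RPM in the 4 libraries, or about 13, 6, 7 and 4 reads. A 0 can therefore stand for a few reads, and no fold change of a single miRNA is given against a 0. The known miRNAs were named by a search against entries of all plants, and the part of near-identical entries in these zeros was not tested beyond the overlaps of sequence given with the pairs of names.

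Zeros also stood beside high levels. Among miRNAs that exceeded 40 RPM in at least 1 library, 15 of 37 in the set (40.5%) were at 0 in another, against 13 of 99 (13.1%) of the other known miRNAs. Of the wheat_miRNAs over 40 RPM it was 4 of 14 (28.6%), and of all listed miRNAs 32 of 150 (21.3%). The miRNAs at 0 somewhere held 39.7, 46.9, 59 and 54.3% of the summed RPM of the set from the three-leaf stage to jointing. Among the other known miRNAs the same share was 0.580, 0.453, 0.685 and 1.39%. At every stage, then, a large part of the reads of the set belonged to names listed at 0 at another stage. Single miRNAs weigh much in these shares. At jointing, miR6249a alone had 1303 of the 1731.2 RPM of the miRNAs at 0 somewhere.

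**Figure D2:**
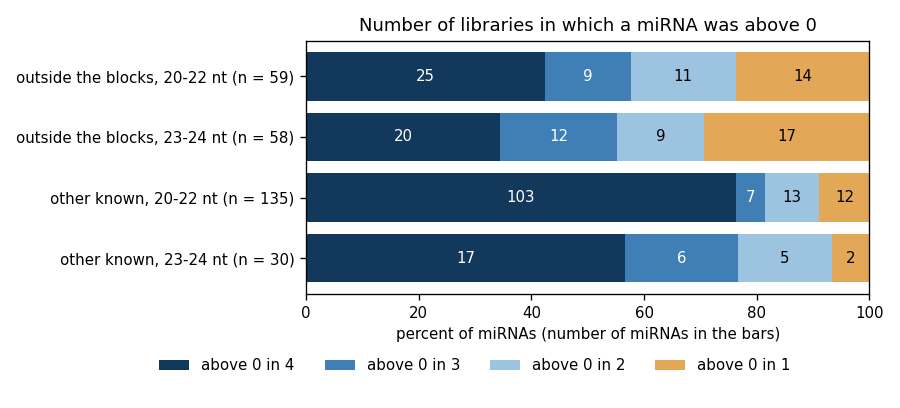
Percent of miRNAs (horizontal axis) above 0 in 4, 3, 2 or 1 of the libraries, for the 117 miRNAs outside the conserved and Pooideae blocks and for the other 165 known miRNAs, by length class; the numbers in the bars are miRNAs. The dark part, above 0 in all 4 libraries, is 25 of 59 and 20 of 58 in the set, against 103 of 135 and 17 of 30 in the other known miRNAs.

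Both length classes of the set shared the gaps. Of 20 to 22 nt, 34 of 59 miRNAs (57.6%) were at 0 somewhere, against 32 of 135 (23.7%) of the other known miRNAs of that length. Of 23 to 24 nt, 38 of 58 (65.5%) were, against 13 of 30 (43.3%). The stages at which they were seen differed by class. The shorter class had 46, 43, 38 and 36 miRNAs above 0 from the three-leaf stage to jointing, fewer at each later stage, whereas the longer class had 34, 40, 45 and 32, with the most at green-up. The other known miRNAs had 115, 118, 117 and 121 above 0 in 20 to 22 nt and 27, 24, 25 and 22 in 23 to 24 nt. With all lengths together the counts were 80, 83, 83 and 68 in the set, against 142, 142, 142 and 143 in the other known miRNAs.

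**Figure D3:**
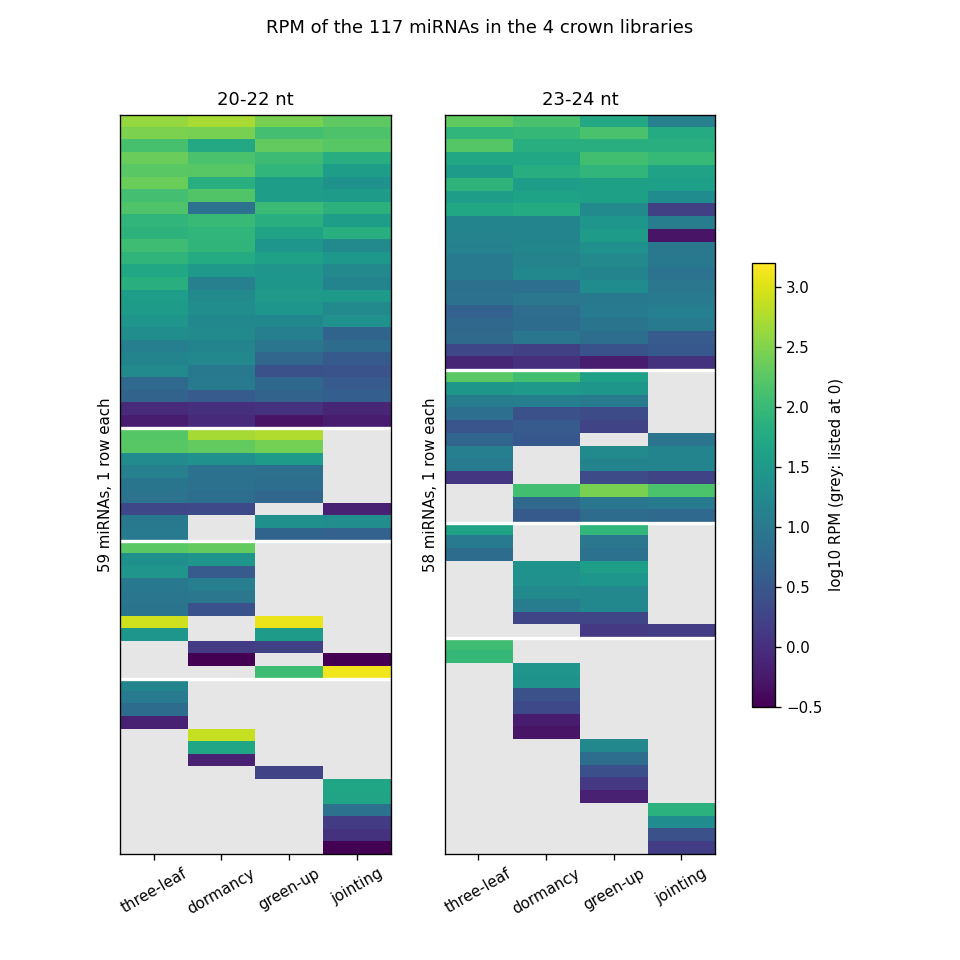
Level of each of the 117 miRNAs (rows, not named) in the 4 libraries (columns), as log10 RPM from dark (low) to yellow (high), with grey for a value listed at 0; the left panel holds 59 miRNAs of 20-22 nt and the right panel 58 of 23-24 nt, and white lines part miRNAs above 0 in 4, 3, 2 and 1 libraries. The grey area covers 72 of the 117 rows in at least 1 column, and bright cells stand beside grey ones.

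Of the 21 miRNAs above 0 in 3 libraries, 11 (9.4% of the set, against 6.61% of all listed miRNAs) lacked jointing alone. They were miR1023a-3p, miR9493, miR5303c, miR5075, miR8645, miR2121a, miR7545, miR2924, miR5248, miR3630-3p and miR6219-3p. miR5303c had 181, 120.5 and 40.6 RPM before its 0 at jointing, and miR8645 held 29.2, 31.6 and 29.1 RPM. A further 5 lacked dormancy alone (miR4403, miR5153, miR5281b, miR5152-3p and miR1863b.2), 3 lacked the three-leaf stage alone (miR5387b, miR6026-3p and miR5672), and 2 lacked green-up alone (miR2607 and miR858b). These were 4.27, 2.56 and 1.71% of the set, against 2.59, 2.59 and 2.3% of all listed miRNAs. miR858, which targets MYB transcription factors in Arabidopsis, was scarce here, with miR858b at 2, 2.1, 0 and 0.7 RPM.

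Among the 20 miRNAs above 0 in 2 libraries, 6 (5.13% of the set, against 3.74% of all listed miRNAs) were seen at three-leaf and dormancy only. All 6 were of 20 to 22 nt. miR3950 led them with 181.1 RPM at three-leaf and 203.1 RPM at dormancy, and miR7697-5p had 22.8 and 26.7 RPM. miR3630-5p, miR5368, miR5255 and miR5521 made up the rest, between 2.7 and 27.1 RPM. Another 6 (5.13% of the set, against 2.87% of all listed miRNAs) were seen at dormancy and green-up only. Of these, 5 were of 24 nt: miR818a, miR5753, miR2674, miR8030-5p and miR2948-5p, with miR5575 of 21 nt as the other one. miR818a had 24.2 RPM at dormancy and 36 RPM at green-up, and miR5753 had 23.3 and 27.7 RPM.

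Another pattern joined stages that do not follow each other. miR5240, miR1223j, miR7484m, miR5149 and miR9767 were above 0 at three-leaf and green-up and at 0 at dormancy and jointing. miR1223j, also first named in moss, had 27.8 and 33.4 RPM at these 2 stages, and miR5149 had 10.2 and 9.2 RPM. In all 5 the 2 values above 0 lay within 2.03-fold of each other. These 5 were 4.27% of the set, against 3.16% of all listed miRNAs with this pattern. miR6249a and miR2628 were seen at green-up and jointing only, and miR3954, which triggers phased small RNAs from NAC genes in citrus, at dormancy (0.3 RPM) and jointing (0.2 RPM). None of the 117 miRNAs was seen at three-leaf and jointing alone, a pattern of only 2 of the 348 listed miRNAs (0.575%).

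A single library held 31 of the miRNAs (26.5%, against 14.7% of all listed miRNAs), with a median of 6.5 RPM, and 16 of them exceeded 5 RPM. By stage they numbered 6 at three-leaf, 9 at dormancy and 6 at green-up, with 10 at jointing. These were 5.13, 7.69, 5.13 and 8.55% of the set, against 2.59, 3.45, 2.87 and 5.75% of all listed miRNAs. Only at three-leaf were miR7512 (117.4 RPM), miR5387a (91.8 RPM), miR477c, miR6173, miR7532a and miR1432-3p. Only at dormancy were miR8135 (760.8 RPM), miR5241a (48.2 RPM), miR3627a, miR774a-5p.1, miR5741a, miR8562c, miR2947, miR823-3p and miR1886h. The 7 last named there lay between 0.5 and 26.5 RPM.

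Only at green-up were miR3948 (17 RPM), miR1859, miR8128-5p, miR9737, miR5783 and miR2930, so that no miRNA confined to the green-up library exceeded 17 RPM. Only at jointing were miR893 (73.3 RPM), miR1163.2 (47.7 RPM), miR9569-5p (45.3 RPM), miR7501 (19.7 RPM), miR1033a, miR8692, miR478a, miR6150, miR2095-3p and miR7505. Of the 31, 14 were of 20 to 22 nt and 17 of 23 to 24 nt.

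Zeros could not be compared with related names for most of these miRNAs. Related names were those whose sequences overlapped by at least 16 nt on the same strand with at most 2 mismatches. Of the 72 miRNAs at 0 somewhere, 7 had a related name above 0 in a library where they were at 0, and 4 had one with at most 1 mismatch. For the other 65 no related name in the table took their place.

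miR5387a and miR5387b, names from sorghum, were the clearest case. They differ by G16A, with the base of miR5387a first, the position counted from 1 at the 5′ end, and the base of miR5387b last. The differing base is in capitals.
miR5387a: guggcacgaaccgguGcuaaaggu
miR5387b: guggcacgaaccgguAcuaaaggu
miR5387a had 91.8 RPM at three-leaf and 0 at the 3 later stages. miR5387b had 0 at three-leaf and 119.1, 288.3 and 143.5 RPM at dormancy, green-up and jointing. The names never occurred in the same library. Their sum, 91.8, 119.1, 288.3 and 143.5 RPM, was above 0 at every stage and highest at green-up.

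Other pairs shared their zeros. miR7484m and miR9767 differ by G17A and G20A (base of miR7484m first) and have the differing bases in capitals here.
miR7484m: gauugguuguuagaugGaaGgagc
miR9767: gauugguuguuagaugAaaAgagc
miR7484m had 42.4 RPM at three-leaf and 86.2 RPM at green-up, and miR9767 had 6.4 and 7.6 RPM. Both were listed at 0 at dormancy and jointing, so that the sum of the pair was 0 at these stages as well.

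miR1023a-3p and miR5241a overlap by 19 nt without a mismatch, shown in capitals, with miR5241a starting 3 nt further along.
miR1023a-3p: ggaUAUGAAUGGAGAGAGCGCU
miR5241a: UAUGAAUGGAGAGAGCGCUgua
miR5241a had 48.2 RPM at dormancy and was at 0 elsewhere, beside 506.2 RPM of miR1023a-3p at dormancy. At jointing both were at 0.

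**Figure D4:**
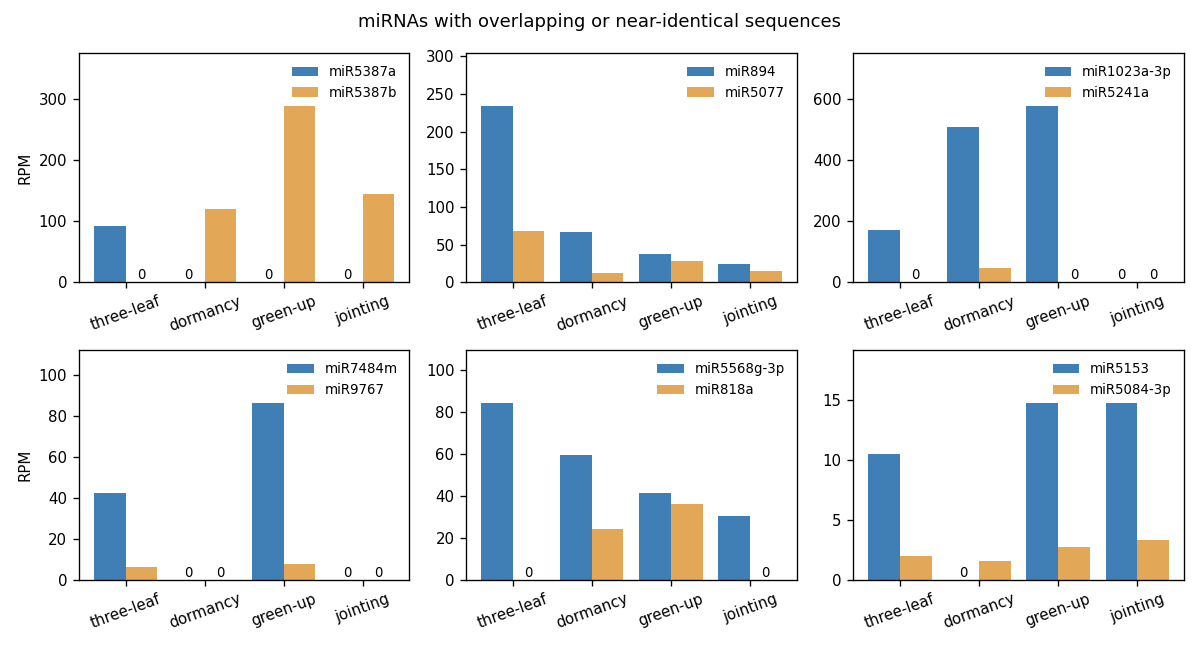
RPM (vertical axes from 0, scaled for each panel) at the 4 stages for 6 pairs of miRNAs whose sequences overlap by 18 nt or more with at most 2 mismatches; a 0 marks a miRNA listed at 0. miR5387a and miR5387b exclude each other, with 91.8 RPM against 0 at three-leaf and 0 against 288.3 RPM at green-up, while miR7484m and miR9767 are at 0 in the same 2 libraries.

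miR818a (24 nt) overlaps miR5568g-3p (21 nt) by 21 nt with 2 mismatches. miR818a had 24.2 RPM at dormancy and 36 RPM at green-up and was at 0 at three-leaf and jointing, where miR5568g-3p had 84 and 30.2 RPM. Their sum was 84, 83.5, 77.3 and 30.2 RPM. miR5153, at 0 at dormancy, had 10.5, 14.7 and 14.7 RPM at the other stages, next to miR5084-3p with 2, 1.6, 2.7 and 3.3 RPM from the three-leaf stage to jointing. miR7697-5p, at 0 at green-up and jointing, overlaps miR1127a, which had 345.4, 454.1, 485.1 and 356.8 RPM, with 1 mismatch. miR9493, at 0 at jointing, overlaps miR1135, miR1436 and miR1439 with 2 mismatches each, and these had 37.5, 78 and 102.4 RPM at jointing.

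An identical sequence was listed under a pair of names. miR1877 has the same 24 nt sequence as miR5050, which is outside the set, yet had 7.3, 7.2, 19.8 and 9.4 RPM where miR5050 had 3.9, 4.5, 1.7 and 5.8 RPM. The authors' methods state that redundant miRBase sequences were merged, yet both names are listed with values of their own. Both values are uncertain for that reason. miR531 of rice overlaps miR9657b-5p with 2 mismatches and was steady, at 26.8, 16.8, 17 and 23.6 RPM.

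miR894 and miR5077 share 18 nt without a mismatch, in capitals here.
miR894: guUUCACGUCGGGUUCACCA
miR5077: UUCACGUCGGGUUCACCAug
miR894 had 234.3, 67, 38.1 and 24.6 RPM from the three-leaf stage to jointing, lower at each later stage. miR5077 had 68, 12.9, 28.9 and 15 RPM. Both were highest at three-leaf. The share of miR5077 in the sum of both was 22.5, 16.1, 43.1 and 37.9%, so the ends of the overlapping reads were not in a fixed ratio.

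miR894 was also 1 of 6 miRNAs of the set that ended in CCA, the letters that close mature tRNAs in plants. The feature was looked for after the values had been seen. The last 3 bases are in capitals.
miR894: guuucacgucggguucaCCA
miR5072: cguuccccagcggagucgCCA
miR5139: cgaaaccuggcucugauaCCA
miR5152-3p: caaguccugcuauacccaCCA
miR8155: ucgaaaccuggcucugauaCCA
miR8175: ucguuccccggcaacggcgCCA
All 6 were of 20 to 22 nt. They were 5.13% of the set, while 4 of the other known miRNAs (2.42%) ended in these letters. Their sum was 722.3 RPM at three-leaf, 353.9 at dormancy and 392.4 at green-up, with 287.5 at jointing. miR5072 had 113.1, 83.3, 28.2 and 18.5 RPM, and miR5152-3p had 10.1, 0, 4.9 and 4.6 RPM. Reads of tRNA were removed by the authors before the search, and a match of these 6 sequences to tRNA genes was not tested.

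A word of 13 letters, GGCUCUGAUACCA, occurred in 5 miRNAs of the set and in miR7782-3p outside it, or 1.72% of all 348 listed miRNAs. It was also found after the values had been seen. The word is in capitals below.
miR845c: aGGCUCUGAUACCAauugaaagga
miR1511: aaaaccuaGGCUCUGAUACCAcug
miR1871: aGGCUCUGAUACCAcuguuggguu
miR5139: cgaaaccuGGCUCUGAUACCA
miR8155: ucgaaaccuGGCUCUGAUACCA
Members of the miR845 family pair with the primer binding sites of retrotransposons in Arabidopsis. Those primer sites are themselves complementary to the end of an initiator tRNA. All 5 miRNAs were above 0 in every library. miR845c had 4.6, 6.7, 10.4 and 12.7 RPM and was higher at each later stage. miR1511 had 10.4, 17.1, 14.8 and 8.2 RPM, and miR1871 had 10.1, 14.1, 17.7 and 9.9 RPM. miR8155, whose 22 nt hold the whole of miR5139 and 1 nt more at the 5′ end, had 5.9, 10.1, 5.4 and 3.7 RPM, highest at dormancy, where miR5139 was lowest.

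The stage of the highest value also differed between the length classes. Over all 117 miRNAs, 33 were highest at three-leaf, 32 at dormancy and 33 at green-up, with 19 at jointing. In 20 to 22 nt the counts were 25, 17, 10 and 7, and in 23 to 24 nt they were 8, 15, 23 and 12. Among the 45 miRNAs above 0 in all libraries, the shorter class had 15, 8, 2 and 0, and the longer class 3, 4, 8 and 5. Among the other known miRNAs without a 0, the counts were 37, 29, 19 and 18 for the shorter class, and 2, 4, 10 and 1 for the longer class, so that a later peak of the longer class was not particular to the set.

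RPM depends on all mapped reads, and the summed RPM of all listed miRNAs was lowest at jointing. Scaling each library to that sum moved every log2 change up by 0.07 for dormancy against three-leaf, 0.34 for green-up against dormancy, 0.64 for jointing against green-up and 1.05 for jointing against three-leaf. Changes are given as deposited, with scaled values beside a part of them. With this scaling 37 miRNAs of the set, in place of 19, were highest at jointing.

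To pass in a comparison, a miRNA needed a log2 change beyond 1 and more than 5 RPM in either library, the authors' thresholds without their p-value. A 0 was set to the value of 3 reads for this purpose. The median log2 changes include such zeros, except those given for miRNAs above 0 in both libraries. For dormancy against three-leaf, 81 miRNAs of the set exceeded 5 RPM, of which 11 (13.6%) passed as higher and 23 (28.4%) as lower. Over all listed miRNAs 10.3% passed as higher and 16.3% as lower. Of the 34 that passed, 24 had a 0 in 1 of the libraries, and only miR1023a-3p was higher (2.99-fold) with both values above 0. The 9 that were lower with both values above 0 were miR9484, miR3630-5p, miR5077, miR894, miR5368, miR3630-3p, miR2199, miR5139 and miR1846a-5p.

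miR9484 had the largest of these changes. It had 7.6 RPM at dormancy, against 151.7 RPM at three-leaf (log2 change -4.32, interval -4.56 to -4.09). The later stages had 105.3 and 75.5 RPM, so that dormancy alone was low. The names of both arms of miR3630, first given in grapevine, were highest at three-leaf. miR3630-5p had 27.1, 3.6, 0 and 0 RPM, and miR3630-3p had 7.2, 2.6, 2.3 and 0 RPM.

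For green-up against dormancy, 75 miRNAs exceeded 5 RPM, and 18 (24%) passed as higher and 18 (24%) as lower. Over all listed miRNAs 17.2% passed as higher and 28.8% as lower. The classes leaned to opposite sides. In 20 to 22 nt, 7 of 38 were higher and 13 lower, whereas in 23 to 24 nt 11 of 37 were higher and 5 lower. These shares, 18.4 and 34.2% in the shorter class and 29.7 and 13.5% in the longer class, lay near those of all listed miRNAs of the same lengths, 13.7 and 33.2% and 28.3 and 15%, so the whole table leaned the same way by class. The median log2 change was -0.55 in the shorter class and 0.52 in the longer class, and -0.46 and 0.35 among the miRNAs above 0 in both libraries. The other known miRNAs had medians of -0.44 in 20 to 22 nt and 0.25 in 23 to 24 nt. With scaling the split of the set was 22 higher and 14 lower (61.1% higher, in place of 50%).

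Among the miRNAs of this step with both values above 0, miR9484 (13.9-fold), miR5139 (3.81-fold), miR5387b (2.42-fold), miR5077, miR5291a, miR1877 and miR6219-5p passed as higher. miR6219-5p had 118.4 RPM at green-up, against 52.5 RPM at dormancy. Those that passed as lower were miR1432-5p, miR5073, miR1847-5p, miR5303c, miR5072, miR2876-5p, miR6300, miR6478, miR2916 and miR2658. After scaling, miR2876-5p, miR6478, miR2916 and miR2658 no longer passed, with log2 changes of -0.99, -0.80, -0.67 and -0.66. miR2658, a name from Medicago, had 86.2 RPM at green-up, against 172.6 RPM at dormancy. miR6300 had 37.1 RPM at green-up, against 157.4 RPM at dormancy, and miR2916 had 42.7 RPM, against 85.8 RPM.

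For jointing against green-up, 72 miRNAs exceeded 5 RPM, and 7 (9.72%) passed as higher and 32 (44.4%) as lower. Over all listed miRNAs 16.4% passed as higher and 37.8% as lower. Here the longer class of the set had the lower median. In 23 to 24 nt 22 of 38 were lower and 3 higher, and in 20 to 22 nt 10 of 34 were lower and 4 higher. The lower share was 57.9% in the longer class and 29.4% in the shorter class, against 46.8 and 34.7% of all listed miRNAs of these lengths. The median log2 change was -1.04 in 23 to 24 nt and -0.56 in 20 to 22 nt, and the other known miRNAs had medians of -0.56 and -0.55. After scaling it was -0.38 and 0.09, so that the shorter class lost its direction, and the split of the set was 10 higher and 23 lower (30.3% higher, in place of 17.9%). Only miR6249a was higher with both values above 0, at 11.7-fold (log2 change 3.54, interval 3.48 to 3.60).

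The lower ones with both values above 0 were mostly of 24 nt. miR5291a, a name from Medicago, had 0.5 RPM at jointing, about 10 reads, against 33.6 RPM at green-up (log2 change -6.07, interval -7.19 to -5.24). miR5073 had 1.6 RPM at jointing, against 18.3 RPM at green-up (log2 change -3.52, interval -4.09 to -3.02). miR2876-5p had 13.1 RPM, against 54.1 RPM. miR6228-3p, miR5653, miR1878-3p, miR5387b, miR5649a, miR1877 and miR8037 followed in the longer class with log2 changes between -1.30 and -1.01, and miR2658 and miR4995 in the shorter class. The changes of the 3 first named exceeded 1 after scaling too, at -5.43, -2.88 and -1.41, and those of the others did not.

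For jointing against three-leaf, the ends of the series, 80 miRNAs exceeded 5 RPM, and 12 (15%) passed as higher and 47 (58.8%) as lower. Over all listed miRNAs 16.9% passed as higher and 54.6% as lower, so the set as a whole lay close to the table. In 20 to 22 nt 33 of 45 were lower and 5 higher, and in 23 to 24 nt 14 of 35 were lower and 7 higher. The lower share was 73.3% in the shorter class and 40% in the longer class, against 59.1 and 40.3% of all listed miRNAs of these lengths. The median log2 change was -2.09 in the shorter class and -0.51 in the longer class. Among miRNAs above 0 in both libraries it was -1.19 and -0.34. Scaling gave -1.03 and 0.59, with 22 miRNAs higher and 36 lower (37.9% higher, in place of 20.3%). The shorter class stayed below the longer class in each of these settings, while the direction of the longer class turned with the scaling.

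**Figure D5:**
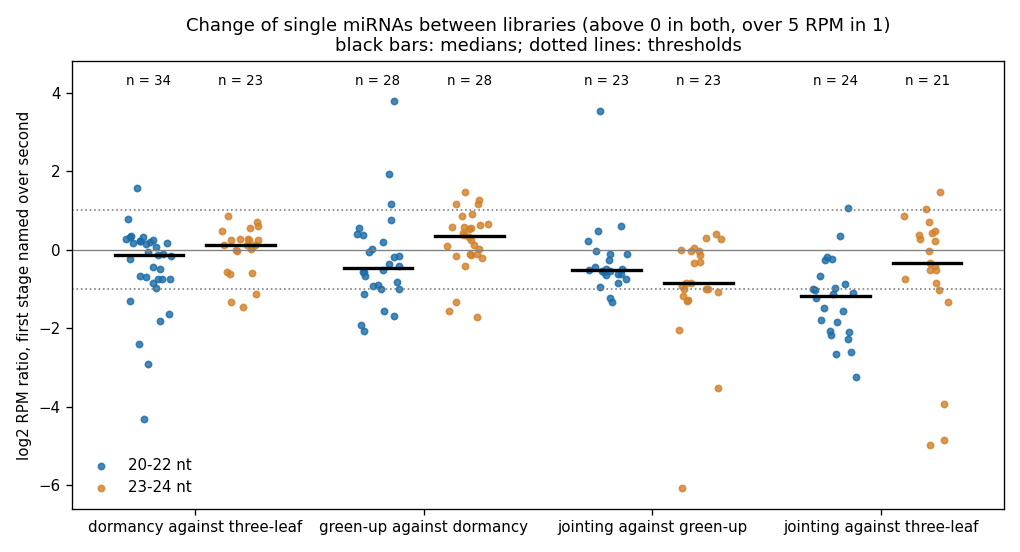
Log2 ratio of RPM between 2 libraries (vertical axis) for single miRNAs of the set above 0 in both libraries and over 5 RPM in at least 1, in 4 comparisons (horizontal axis); blue points are 20-22 nt, orange points 23-24 nt, black bars medians, dotted lines the thresholds of -1 and 1. For green-up against dormancy the medians are -0.46 and 0.35, and for jointing against three-leaf -1.19 and -0.34; the values are not scaled.

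Among miRNAs above 0 in all 4 libraries and with at least 5 RPM in 1 of them, 40 in number, the widest ranges belonged to miR5291a (67.2-fold), miR5073, miR9484, miR2876-5p, miR894, miR1432-5p, miR5072 and miR5077. miR5073, a name from rice, had 50.6, 59.7, 18.3 and 1.6 RPM from the three-leaf stage to jointing. miR2876-5p had 199.9, 136, 54.1 and 13.1 RPM, lower at each later stage. miR1432-5p, whose targets in rice include EF-hand genes and an acyl-CoA thioesterase gene, had 17.8, 9.9, 2.6 and 2.8 RPM, and its other arm, miR1432-3p, was listed with 0.7 RPM at three-leaf alone. For jointing against three-leaf the scaled log2 changes were -3.93 for miR5073, -3.80 for miR5291a, -2.88 for miR2876-5p, -2.20 for miR894 and -1.62 for miR1432-5p. The scaled changes of miR5638a and miR6478 were -0.054 and 0.024 between these end points. The steps between were larger, as the scaled change of miR6478 was -0.80 for green-up against dormancy and 0.86 for jointing against green-up, and that of miR5638a was -0.58 for green-up against dormancy.

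The higher ones at jointing against three-leaf with both values above 0 were 3. miR845c had 12.7 RPM at jointing, against 4.6 RPM at three-leaf (log2 change 1.47). miR8636 had 11 RPM, against 5.4 RPM, and miR5281b had 20.8 RPM, against 9.9 RPM. miR8636 stood at 5.4, 6.4, 8.3 and 11 RPM over the 4 stages and was higher at each later one, like miR845c.

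The narrowest ranges belonged to miR3636-3p, miR531, miR1871, miR7984a and miR5384-3p. miR3636-3p, from grapevine by its name, had 7.7, 9.3, 10 and 10.3 RPM. miR7984a had 34.6, 20.7, 27.4 and 18.8 RPM, and miR5384-3p had 36.7, 18.7, 31.4 and 30.5 RPM. After scaling, which raises jointing most, miR3636-3p was 1.47 higher in log2 at jointing than at three-leaf, so that a level that is steady per mapped read is not steady per miRNA read. Over the 45 miRNAs above 0 in all libraries the median ratio of highest to lowest value was 2.52, against 3.52 in the other known miRNAs. The length classes differed in this. The ratio was 2.78 against 3.82 in 20 to 22 nt, and 2.35 against 1.95 in 23 to 24 nt. The miRNAs at 0 somewhere, most of the set, are not in these ratios. As deposited, 26 of the 45 were lowest at jointing. So were 69 of the 120 other known miRNAs and 125 of all 200 listed miRNAs without a 0, so this was not particular to the set.

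Other miRNAs of the set above 0 in all libraries kept moderate levels. miR6228-3p (23 nt) had 86, 93.1, 136.7 and 59.9 RPM, miR2199 had 167.9, 67.1, 67.8 and 66.6 RPM, and miR5653 had 35.6, 64.4, 86.4 and 42.8 RPM. miR2199 was high at three-leaf alone, and the other 2 were highest at green-up. miR5337a had 87.6, 100.1, 67.2 and 37 RPM, and miR1846a-5p (23 nt) had 79.6, 36.6, 39.7 and 39.1 RPM. miR6219-5p had 52, 52.5, 118.4 and 93.7 RPM, and miR6219-3p, the name of the other arm, had 3, 3.7, 1.8 and 0 RPM. These names therefore did not share a stage profile, and whether both sequences come from the same precursor in wheat was not tested. miR5813, miR5649a, miR8037, miR4995, miR1511, miR5568f-5p, miR1847-5p, miR8148 and miR8129-5p lay between 3.5 and 51.4 RPM.

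At the low end, 3 names had no gap although their highest values were under 2 RPM. miR6118-3p had 0.9, 1, 1.1 and 0.8 RPM, miR7997c had 0.8, 1, 0.6 and 1.1 RPM, and miR2949a-5p had 0.6, 0.9, 0.5 and 0.6 RPM. They were above 0 in every library at about 11 to 24 reads, while miR8135 and miR5240 were at 0 beside libraries with about 15622 to 27339 of their reads.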

How the data were processed

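Small RNA of 4 wheat crown samples, 1 per stage with 3 biological replicates pooled in each, was sequenced by the authors on a BGISEQ-500. Per the paper, clean reads of 18 to 30 nt were kept, SOAP was used to take out those from rRNA, tRNA, other structural RNA and repeats, and a BLASTN search against miRBase release 22.1 named the known miRNAs. Tool versions are not given in the sources used here. The values deposited by the authors are RPM (tags per 1000000 mapped reads, headed TPM), with 1 decimal for known miRNAs and 2 for wheat_miRNAs. Library totals came from the study's methods and results, and with them 148 of 148 two-decimal values under 20 RPM were within 0.12 of whole reads. Read numbers of known miRNAs are approximate because of the rounding.

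The members and lists were chosen with earlier results of these data known. Named miRNAs were the 10 with the highest sum, those at 0 somewhere with over 40 RPM elsewhere, the 8 widest and 5 narrowest ranges among those above 0 in all libraries with at least 5 RPM in one, those related in sequence, those with both arms, and those above 0 in all libraries but under 2 RPM. All others were named after their values were seen, to account for every miRNA. The summed RPM of the set has Wilson intervals and the log2 changes of single miRNAs have exact binomial intervals, all at 95%. These cover neither the rounding nor the spread between plants. The percentages of miRNAs have no interval. A change passed beyond 1 in log2 with over 5 RPM in a library, with a 0 set to 3 reads (0.137 to 0.146 RPM). The calculation was tested on simulated data. Alternatives covered the value of a 0, the level, the threshold, 2 scalings, the length classes and the overlap rule. The count over the first 3 libraries was added after seeing the data. DEGseq was not run. Python 3.11.15, numpy 2.4.6, scipy 1.17.1 and matplotlib 3.10.9 were used. Positions in the wheat genome and precursors were not analysed here.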

Additional observations from a re-analysis of the deposited data

How the results depend on the processing

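Of 111 values under another setting, 56 were classed as the same, 51 as moved and 4 as changed in sign. The first class includes sizeable shifts of counts. The miRNAs listed in all 4 libraries were 32 in place of 45 when 5 RPM was required. Those highest at three-leaf were 23 in place of 33 after scaling to the listed sum. When 5 RPM was required for a listing, 20 miRNAs in place of 31 had it in a single library. Without miR5240 the summed RPM was 4489.2 at three-leaf and 3804.9 at green-up. With zeros left out, the median RPM from three-leaf to jointing was 24.8, 18.5, 28.55 and 18.65 in 20 to 22 nt and 11.95, 14.4, 16.6 and 10.65 in 23 to 24 nt, so that the shorter class was above the longer one at every stage. With classes of 20 to 21 and 22 to 24 nt, the median of the shorter class was 19.2, 12.9, 9.1 and 4.6 RPM, and that of the longer class 3.6, 6.85 and 0.7 RPM from dormancy to jointing.

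With both values above 0 required, the miRNAs passing as higher and lower were 1 and 9 for dormancy against three-leaf, 7 and 10 for green-up against dormancy, 1 and 12 for jointing against green-up, and 3 and 21 for jointing against three-leaf, since fewer miRNAs were counted. A log2 change beyond 2 left 9 lower for green-up against dormancy. Scaling to the listed sum or by the median ratio gave 22 higher each time for jointing against three-leaf, and 37 miRNAs highest at jointing each time. With the median ratio the share of higher among passing miRNAs was 65% for green-up against dormancy, 28.1% for jointing against green-up and 39.3% for jointing against three-leaf.

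The median log2 changes follow for miRNAs above 0 in both libraries, for scaling to the listed sum and for scaling by the median ratio. In 20 to 22 nt they were -0.14, -0.37 and -0.31 for dormancy against three-leaf, -0.46, -0.18 and -0.084 for green-up against dormancy, -0.51, 0.093 and 0.034 for jointing against green-up, and -1.19, -1.03 and -1.01 for jointing against three-leaf. In 23 to 24 nt they were 0.35, 0.86 and 0.96 for green-up against dormancy, -0.85, -0.38 and -0.44 for jointing against green-up, and -0.34, 0.59 and 0.63 for jointing against three-leaf. For dormancy against three-leaf the scalings gave 0.19 and 0.16 there. The 4 changes of sign came from scaling, which shifts every miRNA of a library by 1 factor. Of the zeros with a related name, 4 in place of 7 remained with at most 1 mismatch.

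No paired analysis was possible because each stage had a single library. Pooled replicates and a single library leave the spread between plants unknown, and values under 1 RPM rest on about 20 reads or fewer.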
